A study of Mus musculus with 36 samples.

Results

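The comparison described here set the hypothalamus of mice with 1 intact Sim1 copy (genotype Sim1 +/-) that carried an sgRNA aimed at an enhancer of the gene (enhancer sgRNA) against the hypothalamus of wild-type mice, which have both copies and no guide. It used 9 of the 19 RNA libraries in a series of 36 samples: 4 enhancer sgRNA libraries from B6/FVB mice, F_1 at 6 months, F_2 at 7, M_1 at 6 and M_3 at 3, and 5 wild-type libraries, F_1 at 7 months, F_2 at 7, F_3 at 4, F_4 at 3 and M_1 at 9. Wild type F_2 was B6 and the other wild-type mice were B6/FVB. Letters give the sex, and values for single libraries are listed in these orders throughout. Each library is 1 mouse as far as the labels show, so p-values measure the spread between these samples. The remaining RNA groups, 6 Sim1 +/- mice with a promoter sgRNA (B6/FVB, 3 to 9 months) and 4 Sim1 +/- mice without a guide (Sim1 heterozygous, 4 to 9 months, F_3 of B6 and the others of B6/FVB), entered the estimate of the spread and are given beside the main values.

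SIM1 is a basic helix-loop-helix and PAS transcription factor that pairs with ARNT2 and is needed for neurons of the paraventricular and supraoptic nuclei, among them the cells that make oxytocin, vasopressin, corticotropin-releasing hormone and thyrotropin-releasing hormone. Loss of a copy causes overeating and obesity in mice and humans, and SIM1 neurons carry the melanocortin receptor MC4R, through which POMC neurons of the arcuate nucleus lower food intake. CRISPR activation brings a Cas9 that does not cut DNA, fused to an activator, to a promoter or an enhancer through a guide RNA. The question the comparison addresses is what stays different from mice with both Sim1 copies when the remaining copy is targeted at its enhancer. How the guide and the activator were delivered is not given in the labels, and the guide's sequence is not shown because no file used here holds it.

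The 9 libraries held 14.6 to 84.8 M reads recovered from the normalized counts, lowest in enhancer sgRNA M_1 and highest in wild type F_4. The labelled sex fitted the Y-linked and Xist counts in 9 of 9 libraries. Hypothalamic and neuronal markers were present in each: Nkx2-1, a ventral forebrain factor, ran from 508 to 1275 normalized counts, and the lateral hypothalamic peptide gene Pmch from 12833 to 42517. Levels are normalized counts, which are not divided by gene length, so levels of different genes are not compared. Some libraries stood apart in marker genes of other tissue: wild type F_3 and F_4 in choroid plexus genes and enhancer sgRNA M_3 in striatal genes. In midbrain dopamine neuron genes wild type M_1 lay above the wild-type females and near the enhancer sgRNA libraries. Wild type F_2 stood apart in the share of reads on Gm42418, a gene that overlaps ribosomal RNA sequence, with 9.07%, against 0.649% to 2.07% in the other 8 libraries. Several list results that rest on these libraries are also given without them. In bulk tissue, fewer cells of a type and less RNA per cell cannot be told apart.

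Over the whole transcriptome 0 of 20505 genes separated enhancer sgRNA from wild-type mice at an adjusted p under 0.05 by limma (0%), and the smallest adjusted p was 0.99967. Before adjustment 259 genes had a p under 0.05, which is 1.26% of those tested. Of these, 87 were above wild type (0.424%) and 172 below (0.839%). If no gene differed, a share of about 0.05 would be expected at this threshold, and 1.26% lies below that. edgeR and DESeq2 on the recovered reads also called 0 genes and had 284 and 295 at an unadjusted p under 0.05. The same limma fit had 768 genes at an unadjusted p under 0.05 in Sim1 heterozygous against wild-type mice (3.75%) and 433 in promoter sgRNA against wild-type mice (2.11%), again with 0 calls after adjustment. These comparisons share their 5 wild-type libraries. The median log2 fold change of all genes was -0.0023 and 49.6% of genes lay above 0, so the direction of most genes was evenly split.

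**Figure D1:**
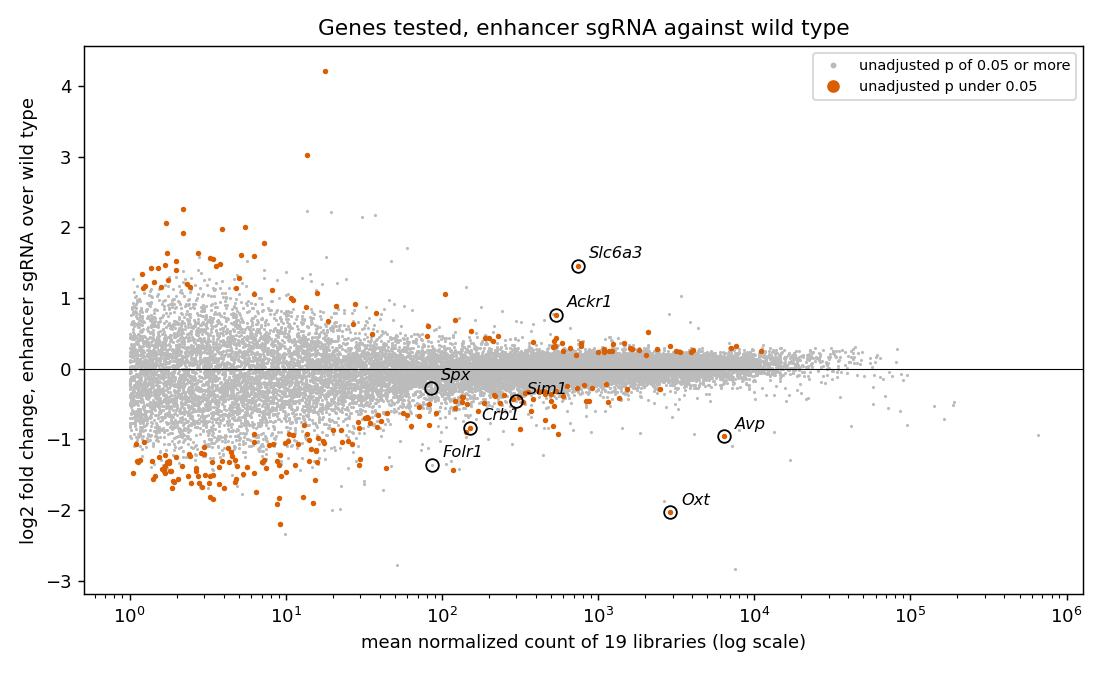
Log2 fold change of enhancer sgRNA over wild-type libraries (vertical axis) against the mean normalized count of 19 libraries (horizontal log axis), 1 point per gene, with the 259 genes at an unadjusted p under 0.05 in orange and 8 genes named in the text circled. Most genes lie near 0, and Oxt at -2.03 and Avp at -0.95 lie lowest among the circled genes of high level at an unadjusted p under 0.05.

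Sim1 itself, at chr10:50894754-50989152 (GRCm38, plus strand), was at 71.0% of the wild-type mean with the enhancer sgRNA, against 58.3% with the promoter sgRNA and 49.9% in Sim1 heterozygous mice. It had 287, 353, 272 and 287 normalized counts in enhancer sgRNA mice, against 547, 485, 394, 305 and 381 in wild-type mice. The ranges overlapped because enhancer sgRNA F_2 lay above wild type F_4, while the other enhancer sgRNA libraries lay below all wild-type ones. The means were 299.9 ± 36.1 with the enhancer sgRNA (SD, n = 4) and 422 ± 94.6 in wild type (SD, n = 5). The log2 fold change was -0.46 (SE 0.30, 95% interval -1.10 to 0.17), with an unadjusted limma p of 0.145 and an adjusted p of 1. A two-sided exact permutation test of the counts over 126 splits gave p = 0.0397, where the smallest p the design allows is 0.00794. Unlike the limma fit, the permutation test took no account of sex. The interval holds 0.

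In mice without a guide Sim1 was at 329.9, 158, 121 and 236 in heterozygous F_1, F_3, F_4 and M_1. Enhancer sgRNA minus Sim1 heterozygous gave 0.61 (SE 0.32, interval -0.06 to 1.27, unadjusted p = 0.0708, adjusted p = 0.678), so in the limma fit neither this difference nor that from wild type reached an unadjusted p under 0.05, while the permutation test against wild type did. In that comparison 1368 genes had an unadjusted p under 0.05 (6.67%) and 0 passed adjustment. The spread among enhancer sgRNA mice was small, 272 to 353, against 305 to 547 in wild type. Of 91 other genes tested within 10 Mb of Sim1, 43 lay above wild type and 48 below, with a median log2 fold change of -0.021. Gm4795 alone had an unadjusted p under 0.05 and Pkib alone had ranges that did not overlap, both named after their values were seen; over all genes tested these shares were 1.26% and 1.04%.

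The 2 hormone genes that stood out lie side by side. Oxt, which encodes oxytocin, was at 29.9% of the wild-type mean, and Avp, which encodes vasopressin, at 49.5%. By unadjusted p they ranked 1 and 2 among the 13707 genes whose mean reached 50 normalized counts, and 3 and 4 among all 20505 genes tested. They are made in separate magnocellular neurons of the paraventricular and supraoptic nuclei, and Avp also in the suprachiasmatic nucleus. Their gene bodies lie on mouse chromosome 2 in opposite directions with 3.57 kb between their ends.

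The 250 bases before each start site, from RefSeq in GRCm38.p6, are shown because these genes had the lowest p-values of the well-expressed genes. Capitals mark ACGTG or CACGT, the core that SIM1 and ARNT2 dimers bind, and AGGTCA or TGACCT, a nuclear receptor half-site, searched on both strands.
Oxt, chr2:130575919-130576168, plus strand: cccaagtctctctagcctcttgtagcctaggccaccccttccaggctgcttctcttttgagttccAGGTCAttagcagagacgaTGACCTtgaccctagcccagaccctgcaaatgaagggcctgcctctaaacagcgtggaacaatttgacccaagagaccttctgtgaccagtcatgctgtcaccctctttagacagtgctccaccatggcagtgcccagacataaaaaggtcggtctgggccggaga
Avp, chr2:130582589-130582838, minus strand: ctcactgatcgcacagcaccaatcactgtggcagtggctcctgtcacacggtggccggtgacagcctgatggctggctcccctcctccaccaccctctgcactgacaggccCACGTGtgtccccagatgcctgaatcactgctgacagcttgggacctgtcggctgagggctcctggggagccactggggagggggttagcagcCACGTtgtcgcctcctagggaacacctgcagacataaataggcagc
The Oxt window held 2 half-site matches and 0 ACGTG matches. The Avp window held 3 ACGTG matches at 2 places, since the run CACGTG reads alike on both strands, and 0 half-site matches. Among 32851 promoter windows of this length 16.6% held ACGTG and 14.0% held AGGTCA on either strand, and the longer form TACGTG (2.72% of windows) was in neither. A match is a description of these letters and not of binding.

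Oxt had 1300.0, 4065, 209 and 2448 normalized counts in enhancer sgRNA mice, against 9060.2, 5253, 9048, 6421 and 3706 in wild-type mice. Enhancer sgRNA M_1, the shallowest library, was lowest and enhancer sgRNA F_2 overlapped wild type M_1. Within a sex the groups did not overlap: the enhancer sgRNA females lay below the 4 wild-type females, and the enhancer sgRNA males below the wild-type male. The log2 fold change was -2.03 (SE 0.54, interval -3.16 to -0.90), with an unadjusted limma p of 0.0013, an adjusted p of 1 and a two-sided exact permutation p of 0.0238. Oxt and Sim1 were the only genes given a permutation test, both p-values are unadjusted, and Oxt was chosen with its earlier results known. Neither permutation test took account of sex, and the groups differ in their share of males.

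All 3 groups with 1 Sim1 copy had mean Oxt levels below wild type. Promoter sgRNA mice had 1053, 1145, 1565, 3112, 1481 and 1344 (log2 fold change -1.95 over wild type) and Sim1 heterozygous mice 768, 1632, 858 and 439 (-2.89). Enhancer sgRNA minus Sim1 heterozygous was 0.86 with an interval of -0.32 to 2.04 (unadjusted p = 0.144). Enhancer sgRNA F_2 and M_3 had more Oxt than any Sim1 heterozygous mouse, F_1 lay inside that group's range and M_1 below it.

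Avp had 5534, 4305, 2439 and 5825 normalized counts in enhancer sgRNA mice, against 10937, 12244, 9112, 8309 and 5103 in wild-type mice. Both enhancer sgRNA females lay below all wild-type females, whereas the male M_3 lay above the wild-type male and M_1 below it. The log2 fold change was -0.95 (SE 0.27, interval -1.52 to -0.39, unadjusted p = 0.00213, adjusted p = 1). It was -0.57 with the promoter sgRNA and -0.73 in Sim1 heterozygous mice, and enhancer sgRNA minus Sim1 heterozygous was -0.23 (interval -0.81 to 0.36). Without enhancer sgRNA or wild-type libraries in turn, Avp ran from -1.19 to -0.74 and Oxt from -2.53 to -1.36.

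Within a library, where depth cancels, Oxt counts were 0.235, 0.944, 0.0858 and 0.420 times the Avp counts in enhancer sgRNA mice, against 0.828, 0.429, 0.993, 0.773 and 0.726 in wild-type mice. The ratio was 0.0889 to 0.254 in Sim1 heterozygous mice and 0.168 to 0.592 in promoter sgRNA mice. Enhancer sgRNA F_2 had a ratio like those of wild type, and the other 3 enhancer sgRNA mice lay below every wild-type ratio.

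**Figure D2:**
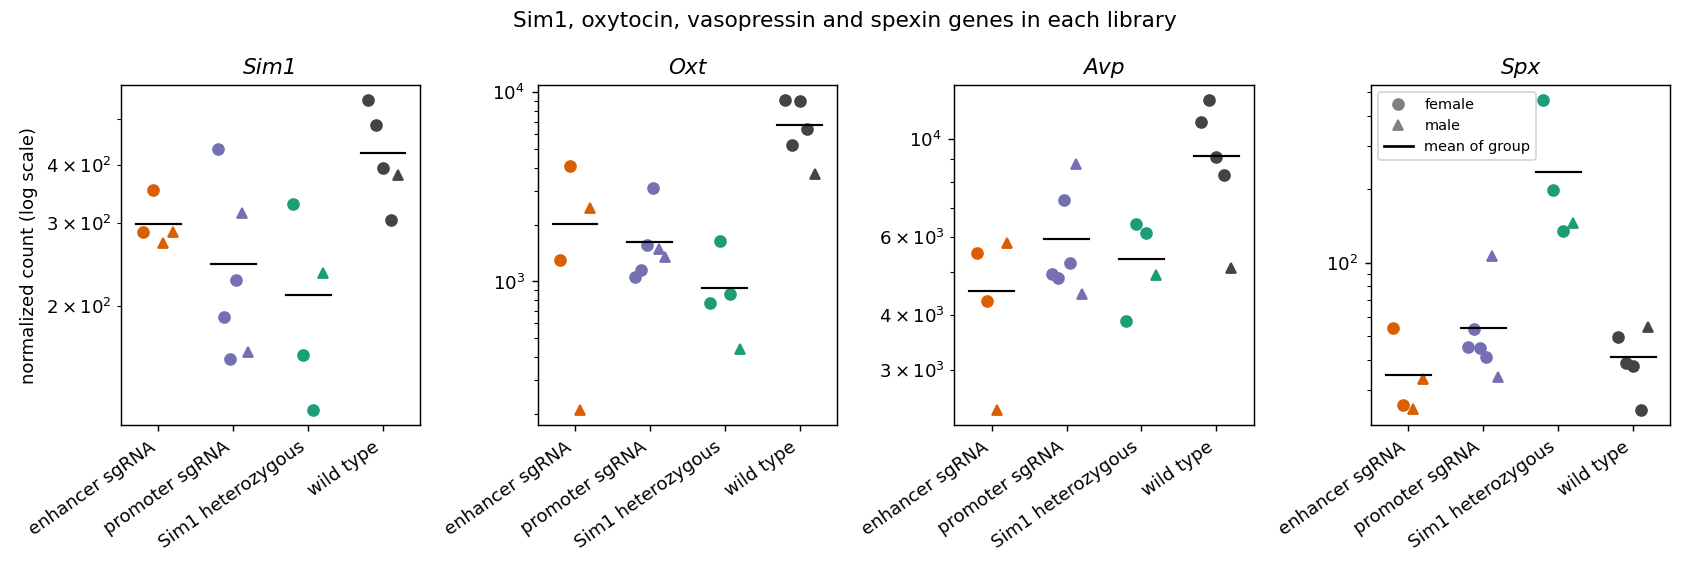
Normalized counts (log axes) of Sim1, Oxt, Avp and Spx in each library, 1 point per mouse with circles for females and triangles for males, in the order enhancer sgRNA, promoter sgRNA, Sim1 heterozygous and wild type; black lines are group means. Oxt and Avp lie below most wild-type points in the 3 groups with 1 Sim1 copy, and Spx is high in the Sim1 heterozygous group and near wild type with the enhancer sgRNA.

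The other hormone genes of SIM1 neurons had smaller fold changes and did not reach an unadjusted p under 0.05. Trh, which encodes thyrotropin-releasing hormone, had 4314, 3362, 2464 and 2295 normalized counts with the enhancer sgRNA and 5509, 4981, 4430.2, 2712 and 3755 in wild type (log2 fold change -0.42, SE 0.26, unadjusted p = 0.123), and M_1 and M_3 lay below the wild-type range. Crh, the gene of corticotropin-releasing hormone, had 234, 146, 90.0 and 267 with the enhancer sgRNA and 276, 160.0, 284, 270.2 and 106 in wild type, ranges that overlapped (log2 fold change -0.12, interval -0.84 to 0.61). Sst, which encodes somatostatin, had a log2 fold change of 0.24. Of 22 peptide genes of these nuclei, 12 lay above wild type and 10 below, with a median of 0.03; Oxt and Avp were the 2 at an unadjusted p under 0.05, and both also lay low in earlier results of these data.

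Transcription factors of the lineage split evenly: 6 of 12 were above wild type and 6 below, with a median log2 fold change of 0.01. Otp, which acts with SIM1 in forming neuroendocrine cells, had -0.15 (interval -0.89 to 0.59), Arnt2, the partner of SIM1, 0.04, and Sim2, its paralog, 0.22. Pou3f2, which lies downstream of SIM1 and ARNT2, had 884, 822, 831 and 929 with the enhancer sgRNA and 1064, 1224, 962, 891 and 916 in wild type (log2 fold change -0.22, SE 0.14, unadjusted p = 0.118). Of the 19 receptors and markers of SIM1 neurons, 11 lay above and 8 below wild type (median 0.03). Crhr1, a receptor for corticotropin-releasing hormone, had 341, 253, 349.7 and 367 with the enhancer sgRNA and 334, 275, 235, 154 and 262 in wild type (log2 fold change 0.41, SE 0.20, unadjusted p = 0.0527). Mc4r had a log2 fold change of -0.17 (interval -0.65 to 0.31), and Prlr, the prolactin receptor, -0.24, against -0.78 in Sim1 heterozygous mice. Prlr is also a choroid plexus gene, and wild type F_3 and F_4 were high in choroid plexus genes. With the enhancer sgRNA Prlr ran from -0.45 to -0.13 over alternative settings of the fit. The part of choroid plexus in its values was not tested.

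In the feeding circuit around the paraventricular nucleus 0 genes of the arcuate list reached an unadjusted p under 0.05. Of 16 arcuate genes 12 lay above and 4 below wild type, with a median of 0.07. Without enhancer sgRNA M_1 the arcuate split turned to 5 above and 11 below (median -0.12), and without wild type F_4 it was 8 and 8 (-0.00083). Pomc, whose product gives the satiety peptide alpha-MSH, had 2036, 2024, 4462 and 656 normalized counts with the enhancer sgRNA and 2299, 1252, 2212, 830.5 and 1279 in wild type (log2 fold change 0.34, SE 0.54). Pomc was highest in enhancer sgRNA M_1 and lowest in M_3 among the 9 libraries, and so was Agrp, which encodes an antagonist of MC4R: 135, 62.8, 195 and 36.6 with the enhancer sgRNA and 113, 118, 73.4, 42.6 and 93.3 in wild type (log2 fold change 0.01). Agrp overlaps Gm5914 on its own strand and Ctcf, Ripor1 and Gm38250 on the other in the annotation, so its counts are uncertain. Npy, the gene of the appetite peptide neuropeptide Y, had 779, 603, 882 and 905 with the enhancer sgRNA and 648, 596, 549.5, 560.0 and 529 in wild type (log2 fold change 0.39, SE 0.32, unadjusted p = 0.235), with 3 of 4 enhancer sgRNA values above all wild-type ones.

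Lepr, the leptin receptor gene, had a log2 fold change of 0.0048 (interval -0.74 to 0.75), and Bdnf, a growth factor downstream of MC4R signalling, 0.08 (interval -0.38 to 0.54). The 23 genes of melanocortin, leptin and insulin signalling split 12 above and 11 below with a median of 0.0048, and the 2 of lowest p had 0.20 for Adcy3, an adenylate cyclase gene, and 0.10 for Sh2b1, an adaptor of leptin and insulin receptors. In the lateral hypothalamus Hcrt, the gene of the orexins, had 3418, 4232, 7588 and 1939.8 with the enhancer sgRNA and 2162, 4001, 2209.7, 3038 and 2118 in wild type (log2 fold change 0.67, SE 0.46, unadjusted p = 0.166), again highest in enhancer sgRNA M_1 and lowest in M_3. Of 10 lateral hypothalamic peptides 7 lay above and 3 below wild type (median 0.17). Without enhancer sgRNA M_1 the split of these peptides was 5 and 5 (median -0.0011).

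Suprachiasmatic genes, which include Avp, had 12 of 15 below wild type and 3 above (median -0.15 with the enhancer sgRNA, -0.22 with the promoter sgRNA and -0.36 in Sim1 heterozygous mice). Prok2, a secreted output signal of that clock nucleus, had 63.6, 13.6, 25.1 and 26.1 with the enhancer sgRNA and 59.9, 35.4, 61.5, 57.1 and 38.5 in wild type (log2 fold change -0.78, SE 0.48, unadjusted p = 0.118). The 30 transcription factors of other hypothalamic regions split 16 above and 14 below, with a median of 0.07.

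Spx encodes the peptide spexin and was named for its high level without a guide in earlier results of these data. It had 54.0, 26.0, 25.1 and 33.4 normalized counts with the enhancer sgRNA, against 49.4, 38.9, 37.8, 24.9 and 54.3 in wild type, so the ranges overlapped and the log2 fold change was -0.27 (interval -1.07 to 0.54). Sim1 heterozygous mice had 461, 198, 134 and 145, 2.34 over wild type, and promoter sgRNA mice 44.9, 53.4, 44.8, 41.2, 106 and 33.9. Each enhancer sgRNA mouse lay below each Sim1 heterozygous mouse, with a difference of -2.61 (SE 0.40, unadjusted p = 3.03e-06), but the adjusted p was 0.0622. Because Spx was chosen for its values in that heterozygous group, the separation and the unadjusted p are a description.

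Among reactive glial genes, Gfap, the astrocyte intermediate filament, had 14794, 9228, 14012 and 7879 normalized counts with the enhancer sgRNA and 13007, 26796, 10040.4, 13933 and 12009 in wild type, with wild type F_2, the B6 mouse, highest (log2 fold change -0.37, SE 0.27, unadjusted p = 0.191); the Sim1 heterozygous value over wild type was 0.95. Of 17 reactive astrocyte genes 5 lay above and 12 below wild type, and the list medians over wild type were -0.17 with the enhancer sgRNA, -0.05 with the promoter sgRNA and 0.83 in Sim1 heterozygous mice. C3, the central complement protein, had 237, 149, 144 and 113 with the enhancer sgRNA and 196, 233, 182, 217 and 176 in wild type (log2 fold change -0.32, SE 0.21, unadjusted p = 0.143), and C4b, an early complement component, -0.35, against 1.37 in Sim1 heterozygous mice. Enhancer sgRNA minus Sim1 heterozygous was -1.32 for Gfap (0.379), -1.16 for C3 (0.193) and -1.72 for C4b (0.304), with adjusted p-values in parentheses, so 0 of the 3 passed. The reactive astrocyte median over wild type ran from -0.26 to -0.035 leaving out 1 library, the smallest being without wild type F_2, and with the authors' stabilized log2 values 13 genes lay above and 4 below (0.044). In enhancer sgRNA minus Sim1 heterozygous the 17 reactive astrocyte genes all lay lower with the enhancer sgRNA, 9 of them at an unadjusted p under 0.05, where 49.7% of all genes lay lower, 6.67% had such a p and 3.77% had both. All 17 also lay above wild type in Sim1 heterozygous mice, and the list was chosen with earlier results of these data known. These counts are a description and not a test.

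Complement medians over wild type were -0.04 with the enhancer sgRNA, 0.06 with the promoter sgRNA and 0.51 in Sim1 heterozygous mice. MHC class II medians were -0.08 with the enhancer sgRNA, -0.19 with the promoter sgRNA and 1.11 in Sim1 heterozygous mice, and those of microglial genes -0.07 with the enhancer sgRNA, 0.04 with the promoter sgRNA and 0.22 in Sim1 heterozygous mice. Enhancer sgRNA minus Sim1 heterozygous was negative for 15 of 15 complement genes, 7 of 7 MHC class II genes, 17 of 17 microglial genes and 23 of 25 interferon response genes, with 9, 4, 10 and 12 at an unadjusted p under 0.05. Of all genes 6.67% had such a p, and 3.77% also lay lower. The complement and microglial lists share the gene highest over wild type in each (0.054), so their counts are not separate results. These lists were chosen with earlier results of these data known, so the counts are a description. The MHC class II median over wild type ran from -0.48 to 0.089 leaving out 1 library, lowest without wild type M_1 and highest without wild type F_1. With the authors' stabilized log2 values it was 0.12 with 7 of 7 genes above, and that of complement genes was 0.042. Without wild type F_2 the complement median over wild type was 0.039, with 9 genes above and 6 below. Siglech, a microglial surface receptor gene, had 263, 322, 320.4 and 331 with the enhancer sgRNA and 258, 479, 458, 505 and 357 in wild type (log2 fold change -0.43, SE 0.20, unadjusted p = 0.0465), with wild type F_1 below all of the enhancer sgRNA values. Of 25 interferon response genes 4 lay above and 21 below wild type (median -0.18). Without enhancer sgRNA M_3 the interferon split was 9 and 16 (median -0.023), with females alone 11 and 14 (-0.040), and with the authors' stabilized log2 values it turned to 18 above and 7 below (0.031). Oasl2, an antiviral gene induced by interferon, had 158, 161, 149 and 129.5 with the enhancer sgRNA and 239, 169.7, 198, 180.3 and 204 in wild type, ranges that did not overlap (log2 fold change -0.48, SE 0.23, unadjusted p = 0.0513), and B2m, the light chain of MHC class I, had -0.28. Blood genes, which mark blood left in the tissue, had medians of 0.13 with the enhancer sgRNA, 0.03 with the promoter sgRNA and 0.80 in Sim1 heterozygous mice. With the enhancer sgRNA the blood median ran from 0.0074 to 0.59 leaving out 1 library. The mean log2 level of blood genes, relative to their mean over 19 libraries, was -0.97, 0.92, -0.05, -0.65 and -0.82 in wild type, highest in F_2. Meningeal genes had medians of -0.03 with the enhancer sgRNA, 0.01 with the promoter sgRNA and 0.43 in Sim1 heterozygous mice. The meningeal median with the enhancer sgRNA ran from -0.33 to 0.30 leaving out 1 library, lowest without wild type M_1 and highest without enhancer sgRNA F_1, and with females alone it was -0.75 with 0 of 15 genes above wild type. Vim, an intermediate filament of reactive astrocytes and tanycytes, had 1886, 1561, 1861 and 1327 with the enhancer sgRNA and 1949.6, 2233, 1873, 2170.4 and 1453 in wild type (log2 fold change -0.20, SE 0.13, unadjusted p = 0.148). The part of blood and meninges in the values of these lists was not tested.

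**Figure D3:**
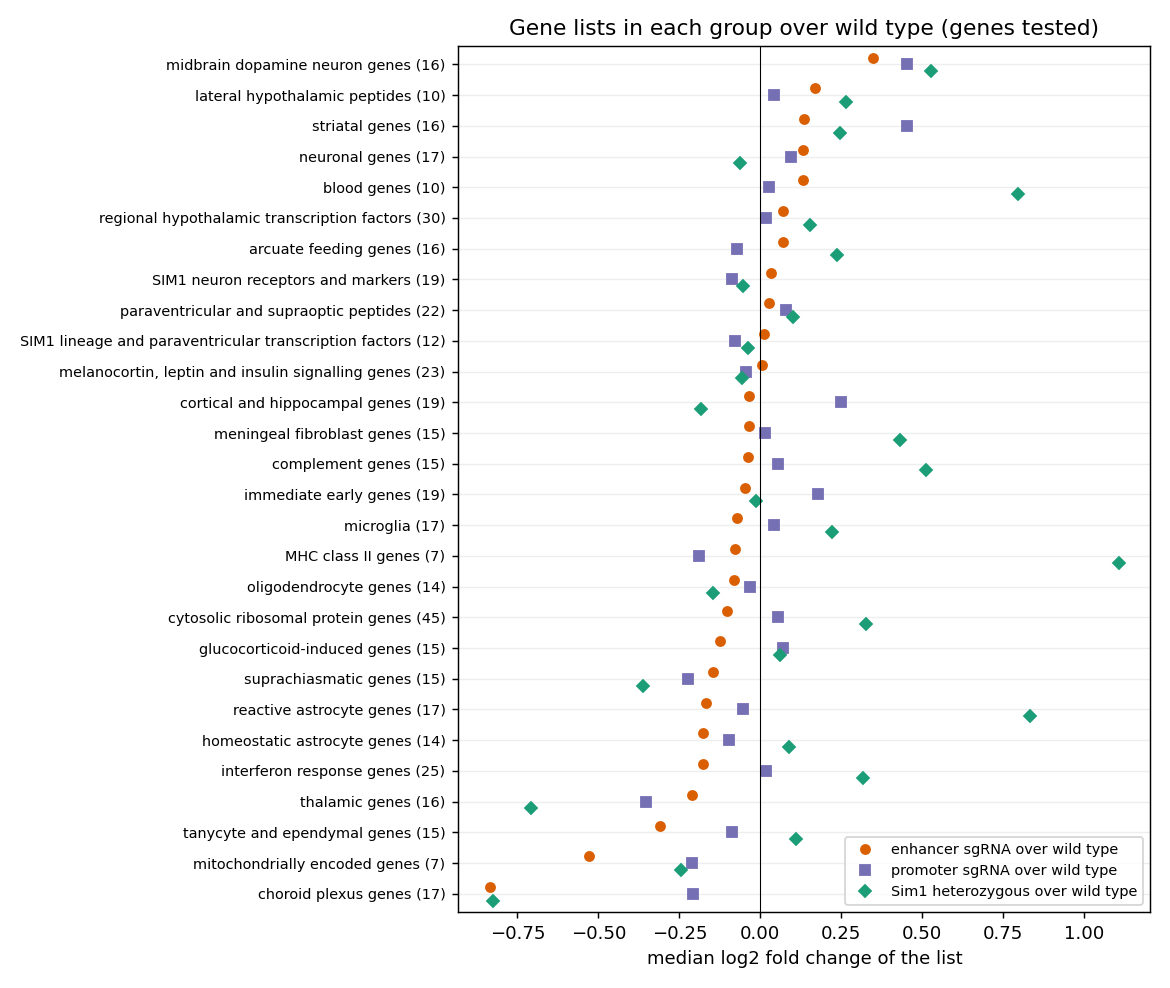
Median log2 fold change over wild type (horizontal axis) of 28 gene lists, for enhancer sgRNA (circles), promoter sgRNA (squares) and Sim1 heterozygous mice (diamonds), all against the same 5 wild-type libraries, with the number of genes tested in parentheses. For reactive astrocyte, complement and MHC class II genes the enhancer sgRNA medians lie between -0.17 and -0.04, and the Sim1 heterozygous ones between 0.51 and 1.11.

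Astrocyte genes of the resting state lay mostly below wild type, 11 of 14, with a median of -0.18. Gja1, the gap junction protein connexin 43, had 10004, 10093, 10348 and 9234 with the enhancer sgRNA and 11217, 15625, 9732, 13455 and 11047 in wild type (log2 fold change -0.28, SE 0.14, unadjusted p = 0.0708), Aqp4, the astrocyte water channel, -0.35, and Slc1a2, the main glutamate transporter, -0.40. Wild type F_2, the library with 9.07% of reads on Gm42418, was the highest for all 3, and without it the list median was -0.083, with 5 genes above and 9 below. Tanycyte and ependymal genes had 13 of 15 below wild type (median -0.31). Foxj1, the regulator of motile cilia, had 1085, 818, 1041 and 461 with the enhancer sgRNA and 1094, 1123, 1328, 1391 and 768 in wild type (log2 fold change -0.40, SE 0.23, unadjusted p = 0.0935), and Tmem212 -0.52. Enhancer sgRNA M_3 was lowest for both, and without it the median was -0.16. Myelin genes split 3 above and 11 below (median -0.08), with -0.45 for Mobp and -0.38 for Mbp, myelin proteins. Without wild type F_3 and F_4 the myelin split turned to 10 above and 4 below (median 0.093).

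Pan-neuronal genes lay above wild type in 16 of 17 cases, but by little, with a median of 0.13 and 0 at an unadjusted p under 0.05. Tubb3, a neuronal tubulin, had 17472, 19723, 15008 and 16937 with the enhancer sgRNA and 16134, 10959.6, 16877, 13057 and 16955 in wild type (log2 fold change 0.26, SE 0.16, unadjusted p = 0.109), and Eno2 and Syp, of neuronal glycolysis and synaptic vesicles, had 0.26 and 0.24. Wild type F_2 was lowest of the 9 libraries for all 3, and the part of its Gm42418 share in these values was not tested. Without it the median was 0.093, with 14 genes above and 3 below.

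Over all genes tested, 213 had enhancer sgRNA and wild-type ranges that did not overlap (1.04%), 100 above (0.488%) and 113 below (0.551%). A random split of the libraries into groups of these sizes separates them in a given direction with probability 0.00794, above both shares. Of the 13707 genes at a mean of 50 or more, 115 had such ranges, 65 above and 50 below. For these 115 the median size was 0.22 on the log2 scale, the largest 0.93, and 0 exceeded 1. The 20 of lowest p, 10 in each direction, are named here as a description.

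Below wild type, Crb1, which encodes a cell polarity protein of radial glia and retina, had 125, 116, 117 and 140.0 normalized counts with the enhancer sgRNA and 206, 176, 278, 182 and 248 in wild type (log2 fold change -0.83, SE 0.27, unadjusted p = 0.00568). Its log2 fold change was -0.71 with the promoter sgRNA and -1.002 in Sim1 heterozygous mice, and enhancer sgRNA minus Sim1 heterozygous was 0.17 (interval -0.42 to 0.75). Its mean relative to wild type was 57.1% with the enhancer sgRNA, 62.9% with the promoter sgRNA and 53.0% in Sim1 heterozygous mice. Rgcc, a regulator of the cell cycle and of complement responses, had 304, 288, 316 and 325 with the enhancer sgRNA and 462, 824, 364, 885 and 477 in wild type (log2 fold change -0.81, SE 0.28, unadjusted p = 0.0104), but -0.07 and -0.08 in the promoter sgRNA and Sim1 heterozygous groups. Naa16, a subunit of an amino-terminal acetyltransferase, had 175, 187, 169.6 and 197 with the enhancer sgRNA and 226, 243, 239.6, 213 and 224 in wild type (log2 fold change -0.37). Naa16 and Rgcc are neighbours on chromosome 14, chr14:79334204-79390778 and chr14:79288756-79301645 on the minus strand, with 0 tested genes starting between them.

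The remaining genes below wild type were Gdpd3, a lysophospholipase D gene (-0.93), Glns-ps1, a glutamine synthetase pseudogene that may share reads with its parent gene (-0.72), and Tubb6, a beta-tubulin gene (-0.66). Tubb6 had 44.5, 37.3, 37.7 and 33.4 with the enhancer sgRNA, 106, 62.1, 85.4 and 75.5 in Sim1 heterozygous mice and 85.5, 62.8, 45.3, 51.7 and 68.4 in wild type, and enhancer sgRNA minus Sim1 heterozygous was -1.05 (adjusted p = 0.607). Smaller values were seen for Zfp963, a zinc finger gene (-0.49), the transcript 9330162012Rik, which overlaps Aldh5a1 on the other strand (-0.46), Elovl2, an elongase of long fatty acids (-0.32), and Naf1, an assembly factor of box H/ACA ribonucleoproteins (-0.32).

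Above wild type, Cdt1, which licenses DNA replication origins, had 108, 92.9, 109 and 100.3 normalized counts with the enhancer sgRNA and 73.2, 54.8, 77.7, 50.2 and 88.8 in wild type (log2 fold change 0.61, SE 0.25, unadjusted p = 0.0254). Fgf18, a fibroblast growth factor gene, had 102, 86.4, 105 and 87.7 with the enhancer sgRNA and 75.1, 63.6, 66.9, 60.3 and 82.0 in wild type (log2 fold change 0.46, SE 0.19, unadjusted p = 0.0249). Fen1, a flap endonuclease of DNA replication and repair, had 679, 609.8, 584 and 620.5 with the enhancer sgRNA and 539, 413, 520.3, 429 and 498 in wild type (log2 fold change 0.39, SE 0.15, unadjusted p = 0.0158). Fen1 overlaps Tmem258 and Gm10143 on the other strand, and Ighmbp2, a helicase gene (0.37), overlaps Mrpl21, so their counts are uncertain. The others were Apol8 (0.43), an apolipoprotein L gene, Nrde2 (0.37), of nuclear RNA surveillance, Ift52 (0.29), of ciliary transport, Tnip1 (0.25), an inhibitor of NF-kappaB signalling, Pank4 (0.23), of the pantothenate kinase family, and Tbc1d22b (0.19), of a family of Rab GTPase-activating proteins. For these 10 genes Sim1 heterozygous over wild type was between -0.05 and 0.30.

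Ackr1, an atypical chemokine receptor of venules named after its values were seen, ranked 3 by p among genes at a mean of 50 or more and 5 among all genes tested. It had 962, 767, 461 and 613 normalized counts with the enhancer sgRNA and 409.5, 350.0, 448, 526 and 467 in wild type (log2 fold change 0.76, SE 0.23, unadjusted p = 0.00297). Enhancer sgRNA M_1 lay inside the wild-type range, and the gene overlaps Cadm3 on its own strand.

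**Figure D4:**
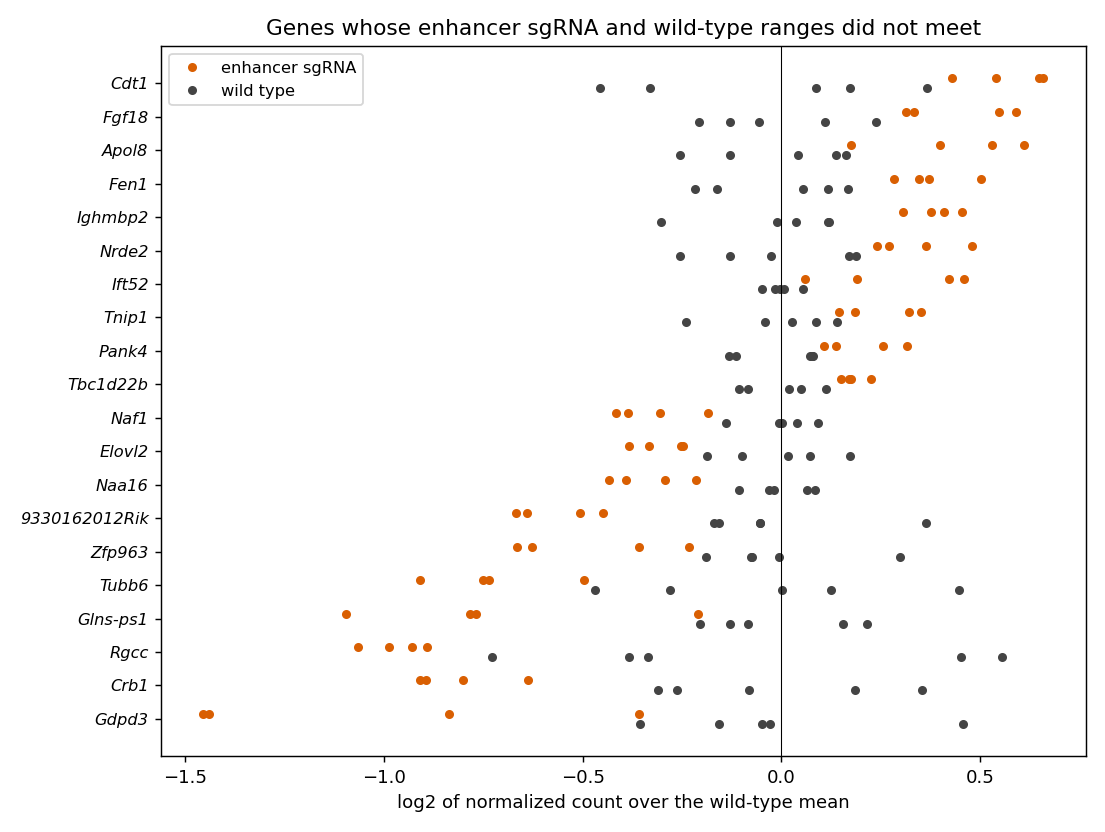
Log2 of the normalized count over the wild-type mean (horizontal axis) for the 20 named genes whose enhancer sgRNA (orange) and wild-type (dark) ranges did not overlap, 1 point per mouse. The genes were chosen for this separation, and each lies less than 1 log2 unit from wild type by the fitted fold change.

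The 17 choroid plexus genes all lay below wild type, with a median of -0.84, and 0 of them had an unadjusted p under 0.05; over the same wild-type libraries the median was -0.21 with the promoter sgRNA and -0.83 in Sim1 heterozygous mice. The mean log2 level of the list, taken relative to its mean over 19 libraries, was -0.66, -0.45, -0.73 and -0.56 in enhancer sgRNA mice and -0.74, -0.19, 1.30, 3.02 and -0.68 in wild type, with wild type F_3 and F_4 far above the other 7 libraries. Kcne2, a potassium channel subunit of that epithelium, had 1.1, 2.4, 0 and 1.0 normalized counts with the enhancer sgRNA and 1.9, 1.8, 87.4, 461 and 1.7 in wild type. Folr1, a folate receptor, had -1.36, F5, a clotting factor, -1.31, and Clic6, a chloride channel, -0.47. Without wild type F_3 and F_4 the median was -0.13, with 7 genes above and 10 below. Those 2 mice, at 4 and 3 months, were the youngest of the wild-type group.

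Midbrain dopamine neuron genes had 15 of 16 above wild type with a median of 0.35. Slc6a3, the dopamine transporter, had 398, 644, 433 and 1242 normalized counts with the enhancer sgRNA and 135, 117, 106, 83.1 and 1459 in wild type (log2 fold change 1.46, SE 0.63, unadjusted p = 0.0307). All enhancer sgRNA values lay above the 4 wild-type females and wild type M_1 was highest of all. Chrna6, a nicotinic receptor subunit of these neurons, had 0.82, and Pitx3 and En1, transcription factors of the lineage, had 1.11 and 1.53. The list's mean level was 0.05, 0.03, 0.23 and 0.18 in enhancer sgRNA mice and -0.25, -0.59, -0.65, -1.25 and 0.35 in wild type. Without wild type M_1 the median was 0.55 with 16 of 16 genes above. Over the same wild-type libraries the medians of the other groups were 0.45 with the promoter sgRNA and 0.53 in Sim1 heterozygous mice.

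Thalamic genes had a median of -0.21, with 12 of 16 below wild type, but ranged widely within groups: their mean level was -0.62, 1.30, -1.04 and 0.58 in enhancer sgRNA mice and -0.32, -0.93, 0.74, 0.60 and 1.25 in wild type. Without wild type M_1 the median was 0.20, with 15 genes above. Striatal genes (10 above, 6 below, median 0.14) had a mean level of -0.52, -0.54, -0.47 and 0.87 in enhancer sgRNA mice and -0.41, -0.18, 0.31, -0.11 and -0.59 in wild type, high in enhancer sgRNA M_3, without which the median was -0.11. Their genes of lowest p were Rgs9 (0.45), a regulator of dopamine signalling, and Drd2 (0.30), the dopamine receptor. Cortical genes split 7 above and 12 below, with a median of -0.03. Their mean level was -0.49, -0.25, -0.69 and 0.78 in enhancer sgRNA mice and -0.19, 0.15, -0.11, 0.60 and -0.25 in wild type, highest in enhancer sgRNA M_3. Without wild type F_3 and F_4 the cortical split was 10 above and 9 below (median 0.059). The cortical median ran from -0.34 to -0.0025 leaving out 1 library, and its lowest value over all settings was -0.56. The part of such tissue in the values of other genes was not tested.

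**Figure D5:**
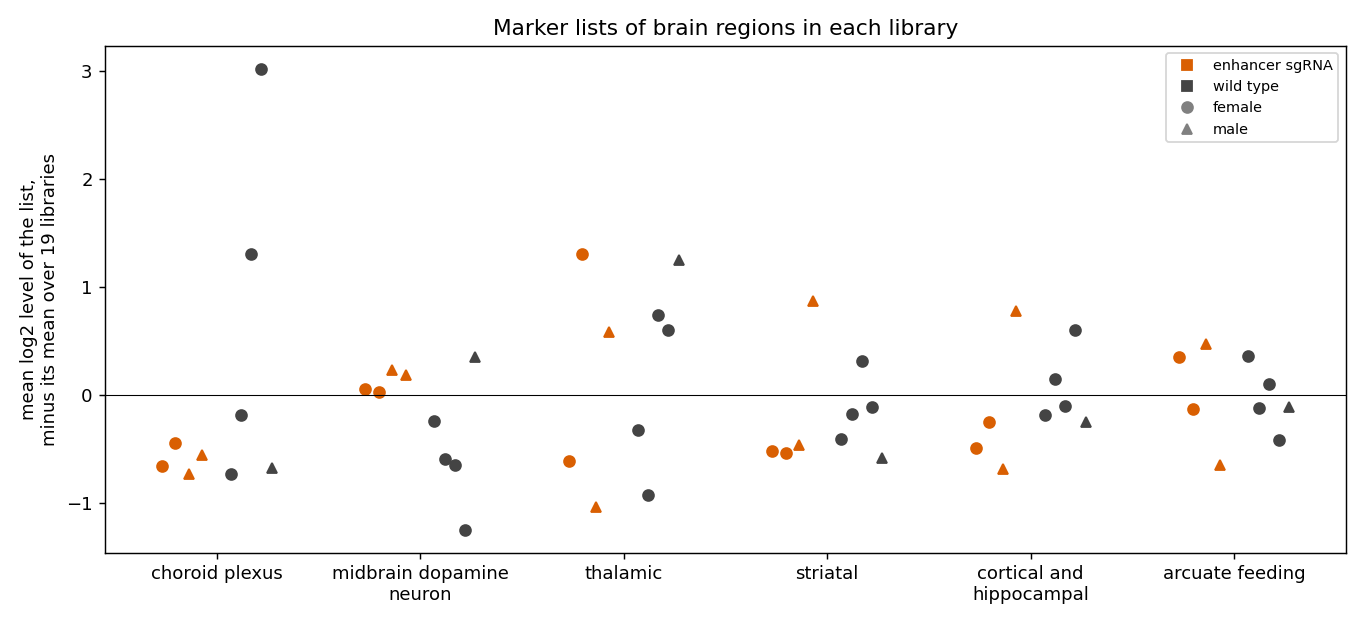
Mean log2 level of 6 marker lists in each library, minus the list's mean over 19 libraries (vertical axis), for 4 enhancer sgRNA (orange) and 5 wild-type (dark) mice, with circles for females and triangles for males. Wild type F_3 and F_4 are high in choroid plexus genes at 1.30 and 3.02, and the 4 wild-type females are low in midbrain dopamine neuron genes, at -0.25 or less.

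Of 19 immediate early genes 7 lay above and 12 below wild type (median -0.05). Fosl2, an AP-1 subunit, had 478, 346, 1011 and 531 with the enhancer sgRNA and 786, 487, 1091, 779.6 and 1484 in wild type (log2 fold change -0.90, SE 0.50, unadjusted p = 0.0862), and Fosb -0.85. Of 15 genes induced by glucocorticoids 4 lay above and 11 below (median -0.12). Pdk4, a kinase that holds back glucose oxidation, had 466, 527, 511 and 483 with the enhancer sgRNA and 485, 727, 489, 730.1 and 812 in wild type (log2 fold change -0.39, SE 0.19, unadjusted p = 0.0477), and Sgk1, a kinase induced by corticosteroids, -0.55; wild type M_1 was highest for both.

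Cytosolic ribosomal protein genes had 35 of 45 below wild type with a median of -0.10, against 0.32 in Sim1 heterozygous mice, and with the authors' stabilized log2 values 27 lay above and 18 below (0.014). Without wild type F_2 the ribosomal split was 18 above and 27 below (-0.037). Rpl30, a protein of the large subunit whose gene has near-identical pseudogenes, had -0.97, against -1.01 with the promoter sgRNA and -0.90 in Sim1 heterozygous mice. The 7 mitochondrially encoded genes tested all lay below wild type (median -0.53), with a mean level of -1.07, -0.08, -0.19 and 0.33 in enhancer sgRNA mice and -0.42, 1.15, -0.06, 0.31 and 0.10 in wild type. Wild type F_2 was highest and enhancer sgRNA F_1 lowest, and mt-Nd2 and mt-Co1, subunits of complexes I and IV, had -0.60 and -0.52. Without wild type F_2 the median was -0.33, without enhancer sgRNA F_1 it was -0.23, and with the authors' stabilized log2 values it was -0.23.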

How the data were processed

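RNA of mouse hypothalamus was sequenced in 19 libraries, made with Nugen Ovation and Nextera XT kits per the labels' protocols. The submitters' processing notes name CASAVA 1.8, STAR 2.5.2b, MACS2 2.1.1.20160309, DESeq2 1.16.1 and the build mm9, without their roles. The authors deposited normalized counts (a signal per gene, with 1 decimal) and, per the file headers, stabilized log2 values. Coordinates are those of the deposited table: of 16717 genes matched by identifier to RefSeq, 99.9% overlap their gene in GRCm38.p6, so GRCm38 is named here although the notes say mm9. Read steps in the normalized counts gave whole reads, within 0.0505 normalized counts, for at least 99.7% of genes in each library, 14.1 to 84.8 M reads per library. The precision of low genes follows from that depth. The ChIP peak lists were not used here, and the sources used here do not say whether counting used strand.

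Genes with a mean of at least 1 in 19 libraries (20505 of 22447) were tested as log2(normalized count + 1) with limma 3.58.1 in R 4.3.3, with a trended prior, all 4 groups in 1 fit, sex as a covariate and Benjamini-Hochberg adjustment over all genes. Fold changes, SE and 95% intervals come from that fit and understate the change of low genes. Means ± SD and percentages are of normalized counts. Sim1 and Oxt also had exact permutation tests, without a covariate. Alternatives ran count models on the recovered reads with DESeq2 1.42.0 and edgeR 4.0.16, other scaling, offsets, filters and covariates, and leaving out libraries. The fits were checked on simulated counts. The text names 16 fixed genes, up to 10 genes in each direction among those with a mean of at least 50 and ranges that do not overlap, by smallest p, and up to 4 genes of each described list by smallest p; of 40 fixed lists 28 are described, a choice made after their values were seen. Members and lists were chosen with earlier results of these data known.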

Additional observations from a re-analysis of the deposited data

Results flagged for a closer look

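In 4 of 130 groups of values examined, 1 library stood farther from the rest of its group than Dixon's criterion allows, and chance flags about 1 in 20 groups. Wild type F_4 had 161.5 normalized counts of Lepr, the leptin receptor gene, against 80.3 to 101.6 in the other wild-type libraries. Wild type F_4 also had 180.3 normalized counts of 9330162012Rik, against 124.6 to 134.9 in the other wild-type libraries. The neuronal genes had a mean log2 level of -0.31 in wild type F_2 (relative to their mean over 19 libraries), against -0.04 to 0.05 in the other wild-type libraries. The striatal genes had a mean log2 level of 0.87 in enhancer sgRNA M_3, against -0.54 to -0.47 in the other enhancer sgRNA libraries.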

How the results depend on the processing

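Each of the 25 alternative settings called 0 genes after adjustment; the smallest adjusted p in any of them was 0.794, without enhancer sgRNA F_2. Genes at an unadjusted p under 0.05 numbered 259, and 395 with age added and 405 with only the enhancer sgRNA and wild-type libraries. There were 564 without 6 libraries, namely wild type M_1 and F_2, Sim1 heterozygous F_3 and F_4, and promoter sgRNA F_5 and M_3. Wild type F_3 and F_4 and enhancer sgRNA M_3 stayed in that fit. The count was 159 at a mean of at least 10 and 96 with the authors' stabilized values. Leaving out 1 library gave 183 (without wild type F_4) to 465 (without wild type M_1). The split above and below wild type was 87 and 172, and 262 and 302 without the 6 libraries, 131 and 156 with females alone, 43 and 53 with the stabilized values and 43 and 141 without enhancer sgRNA F_1. Sim1 ran from -0.66 to -0.22 over all settings and from -0.57 to -0.37 leaving out 1 library, with unadjusted p-values between 0.0131 and 0.335. Oxt ran from -2.53 to -1.19 over all settings, and from -2.53 to -1.36 leaving out 1 library, with unadjusted p-values between 0.000143 and 0.0127.

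Replicate numbers were not used as pairs in the main fit. Same-numbered libraries correlated at 0.508 for F_1, -0.267 for F_2 and -0.045 for M_1 over 13707 genes. Differently numbered pairs ran from -0.437 to 0.308, so the F_1 pair was the highest of all. Whether same-numbered mice share a batch is not given in the labels. With a replicate block 620 genes had an unadjusted p under 0.05 and 0 were called, Sim1 had -0.66 and Oxt -2.30, and Arnt2 turned to -0.066.

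Sign changes occurred for 11 of the 79 genes named with values, in 35 of 1975 gene and setting pairs, for genes with no adjusted p under 0.05 in any setting. Leaving out 1 library, Agrp ran from -0.30 to 0.44, Arnt2 from -0.0046 to 0.089, Bdnf from -0.050 to 0.22, Crh from -0.40 to 0.084, Lepr from -0.23 to 0.21, Mc4r from -0.30 to 0.050, Otp from -0.33 to 0.0023 and Pomc from -0.046 to 0.81. Without wild type F_3 and F_4, Agrp had -0.31, Arnt2 -0.035, Bdnf -0.015 and Crh 0.094. With the stabilized values Arnt2 had -0.0096, C3 0.013, C4b 0.25, Lepr -0.051 and Spx 0.30. With females alone C4b had 0.087, Lepr -0.43, Otp 0.033 and Spx 0.031. Lepr also had -0.030 with DESeq2, -0.036 with edgeR, -0.00058 with only the 2 groups and -0.30 without the 6 libraries, and Otp 0.019 with age added. Medians of 18 of the 28 lists changed sign in at least 1 setting, 9 of them with the authors' stabilized values, and the largest of these 18 medians was 0.21 in size. The 10 that kept their sign in all 25 settings were those of blood, choroid plexus, glucocorticoid-induced, resting astrocyte, microglial, midbrain dopamine neuron, mitochondrially encoded, neuronal, suprachiasmatic, and tanycyte and ependymal genes. A kept sign does not mean a stable size. The blood median fell to 0.0041 with DESeq2, with 5 genes above and 5 below, and the microglial median came to -0.00074 in 1 setting. The median of MHC class II genes moved by more than the spread between libraries, to -0.56 without the 6 libraries, -0.45 without enhancer sgRNA F_2 and -0.48 without wild type M_1. Enhancer sgRNA minus Sim1 heterozygous is given for 1 setting only. The cause of these differences was not tested.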
